A study of Mus musculus with 8 samples.

Results

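The 9 genes described here, Lmo2, Meis1, Hoxa5, Hoxa7, Hoxa9, Hoxa10, Gata2, Hhex and Mecom, encode transcription regulators of blood stem and progenitor cells. They were chosen by name, with earlier results of these data known. Every probeset of the array listed with exactly 1 of these genes was taken. All 9 genes were measured, on 10 of the 21789 probesets that carry exactly 1 gene symbol, which together cover 19938 genes. Mecom had 2 probesets, called 10497590 and 10497608 after their identifiers, and each other gene had 1. Lmo2 lies on mouse chromosome 2, Mecom on chromosome 3, Meis1 on chromosome 11 and Hhex on chromosome 19. The 4 Hoxa genes lie in 1 cluster on chromosome 6, which also carries Gata2.

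Transcript levels were read with 8 microarrays in mouse lymphoid primed multipotent progenitors (early bone marrow cells with lymphoid and myeloid potential) after 4 days of culture on OP9-DL4 stroma, which presents the Notch ligand that starts the T cell programme. The first group was T lineage cells (Thy1+CD25+) from Tcf7+/+ progenitors, with 2 replicates whose source mice the labels do not name. The second was lineage-negative cells (LN; Mac1-Gr1-Thy1-CD25-) from Tcf7-/- progenitors, which lack the transcription factor Tcf1, from 3 mice. The third was LN cells from Tcf7+/+ progenitors, also from 3 mice. All groups received Flt3L at 5 ng/ml and IL1, as the labels spell it, at 1 ng/ml, and were sorted as CD45.2+ cells. Both Tcf7 genotypes are described as backcrossed for about 6 generations and kept on a mixed background. The labels state no age, and say that Tcf7-/- progenitors formed no Thy1+CD25+ cells, so that population could be profiled in wildtype cultures only. The transcript of Tcf7 itself was not analysed here.

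Haematopoietic stem cells and early progenitors share a set of transcription factors that T cell precursors turn down as they commit. Lmo2 is a bridging protein without DNA binding of its own that joins GATA factors, Tal1 or Lyl1, E proteins and Ldb1 in 1 complex, and its persistence in thymocytes is a known route to T cell leukaemia. The Hoxa proteins bind DNA together with TALE cofactors, of which Meis1 is one, and Hoxa9 with Meis1 drives self-renewal in leukaemia. Gata2 maintains stem cells and the precursors of mast cells and megakaryocytes, Hhex is a homeodomain repressor needed in lymphoid progenitors, and Mecom (Evi1) maintains long-term stem cells.

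The promoters of 4 of the 5 genes with the largest falls in T lineage cells are shown to give the sequence next to the start of each gene (RefSeq, mouse build GRCm38.p6, 250 bases before the start, read 5′ to 3′ on the gene's strand). Of the 9 genes, 8 matched the promoter table, with 11 windows, and Lmo2 was not matched. Capitals mark matches, on either strand, to 6 motifs searched by their letters: the TCF/LEF core (CTTTGA, with CTTTGT as its second form), the GATA motif (AGATAA), the Tal1 type of E-box (CAGATG), the RUNX motif (TGTGGT), the TALE motif (TGACAG) and the ETS motif (AGGAAG).
Meis1 (chr11:19018970-19019219, minus strand, 59.6% GC): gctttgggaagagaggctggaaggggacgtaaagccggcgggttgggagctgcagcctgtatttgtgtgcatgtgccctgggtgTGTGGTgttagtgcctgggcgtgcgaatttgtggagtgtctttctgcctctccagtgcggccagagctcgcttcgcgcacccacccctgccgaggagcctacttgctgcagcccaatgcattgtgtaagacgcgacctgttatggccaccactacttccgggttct
Hoxa5 (chr6:52204588-52204837, minus strand, 63.6% GC): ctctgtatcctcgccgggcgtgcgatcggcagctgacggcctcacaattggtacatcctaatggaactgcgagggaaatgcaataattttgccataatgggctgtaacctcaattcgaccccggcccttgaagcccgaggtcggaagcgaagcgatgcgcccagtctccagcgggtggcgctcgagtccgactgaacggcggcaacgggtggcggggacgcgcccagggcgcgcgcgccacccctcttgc
Hoxa7 (chr6:52218574-52218823, minus strand, 54.8% GC): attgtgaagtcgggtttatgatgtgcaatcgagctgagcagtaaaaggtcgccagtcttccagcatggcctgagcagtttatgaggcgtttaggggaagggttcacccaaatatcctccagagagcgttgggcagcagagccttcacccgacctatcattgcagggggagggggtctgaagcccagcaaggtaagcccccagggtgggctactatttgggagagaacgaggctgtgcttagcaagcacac
Hoxa9 (chr6:52227371-52227620, minus strand, 49.6% GC): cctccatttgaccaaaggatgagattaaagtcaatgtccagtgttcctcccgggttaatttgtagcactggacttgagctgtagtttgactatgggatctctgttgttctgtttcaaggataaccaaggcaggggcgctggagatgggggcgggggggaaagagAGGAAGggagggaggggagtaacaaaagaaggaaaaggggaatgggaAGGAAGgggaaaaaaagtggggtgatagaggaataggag
The Meis1 window held the RUNX letters once, at 166 to 161 bases before the start, and the Hoxa9 window held the ETS letters at 86 to 81 and at 39 to 34 bases before the start. In the Hoxa5 and Hoxa7 windows none of the letters searched occurred. Of all 32851 promoter windows in the table, whose median GC content was 52.4%, the TCF/LEF letters stood in 27.6%, against 2 of the 11 windows described here (Hoxa10 and Mecom). The ETS letters stood in 29.5% of all windows and in 3 of the 11 (Hoxa9, Hoxa10 and Hhex). The RUNX letters stood in 14% of all windows, the TALE letters in 15.9%, the E-box letters in 14.4% and the GATA letters in 9.99%, against 1, 1, 1 and 0 of the 11. A match describes letters in a window and is no evidence of binding.

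Array medians lay between 6.85 and 6.91, and replicate arrays had a Pearson r of 0.9947 to 0.9969 over probesets, which share the same cells and are no replicates. The deposited values are log2 signals, on which a difference of 1 is a doubling. Levels of different probesets are not compared, since each probe has its own response. Of the genes of the sort gates, Thy1 stood at 12.52 and 11.88 in T lineage cells, between 8.41 and 8.52 in deficient LN cells and between 8.26 and 8.76 in wildtype LN cells. Itgam, which encodes Mac1, against which LN cells were sorted, stood at 6.25 and 7.04 in T lineage cells, between 7.95 and 8.12 in deficient LN cells and between 7.81 and 8.34 in wildtype LN cells, and was called lower in T lineage than wildtype LN cells (-1.41, limma adjusted p = 0.000760). In a bulk sample, fewer cells of a type and less RNA per cell cannot be told apart. The number of arrays limits the precision. Each p-value sets a difference against the spread between replicate arrays, pooled over the 3 groups. For the T lineage replicates, whose source mice are not named, it is not known whether that spread is between mice.

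T lineage cells had lower levels of 6 of the 10 probesets than wildtype LN cells: Lmo2, Hoxa5, Meis1, Hoxa7, Hoxa9 and Hhex. The falls were 3.21-fold for Lmo2, 2.11-fold for Hoxa5 and 1.98-fold for Meis1, and 1.23-fold for each of Hoxa7, Hoxa9 and Hhex. None of the 10 was called higher, and Hoxa10, Gata2 and both Mecom probesets were not called. A call is an adjusted p under 0.05 in limma, a linear model fitted to all 21789 probesets. Over all probesets this test called 10.4% lower and 7.66% higher. The median difference of the 10 was -0.30 and that of all probesets 0.04. Counted by arrays alone, both T lineage arrays lay below all 3 wildtype LN arrays for the same 6 probesets, against 19.8% of all probesets. They lay above them for 1 (Mecom 10497608, without a call), against 28.0% of all.

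**Figure D1:**
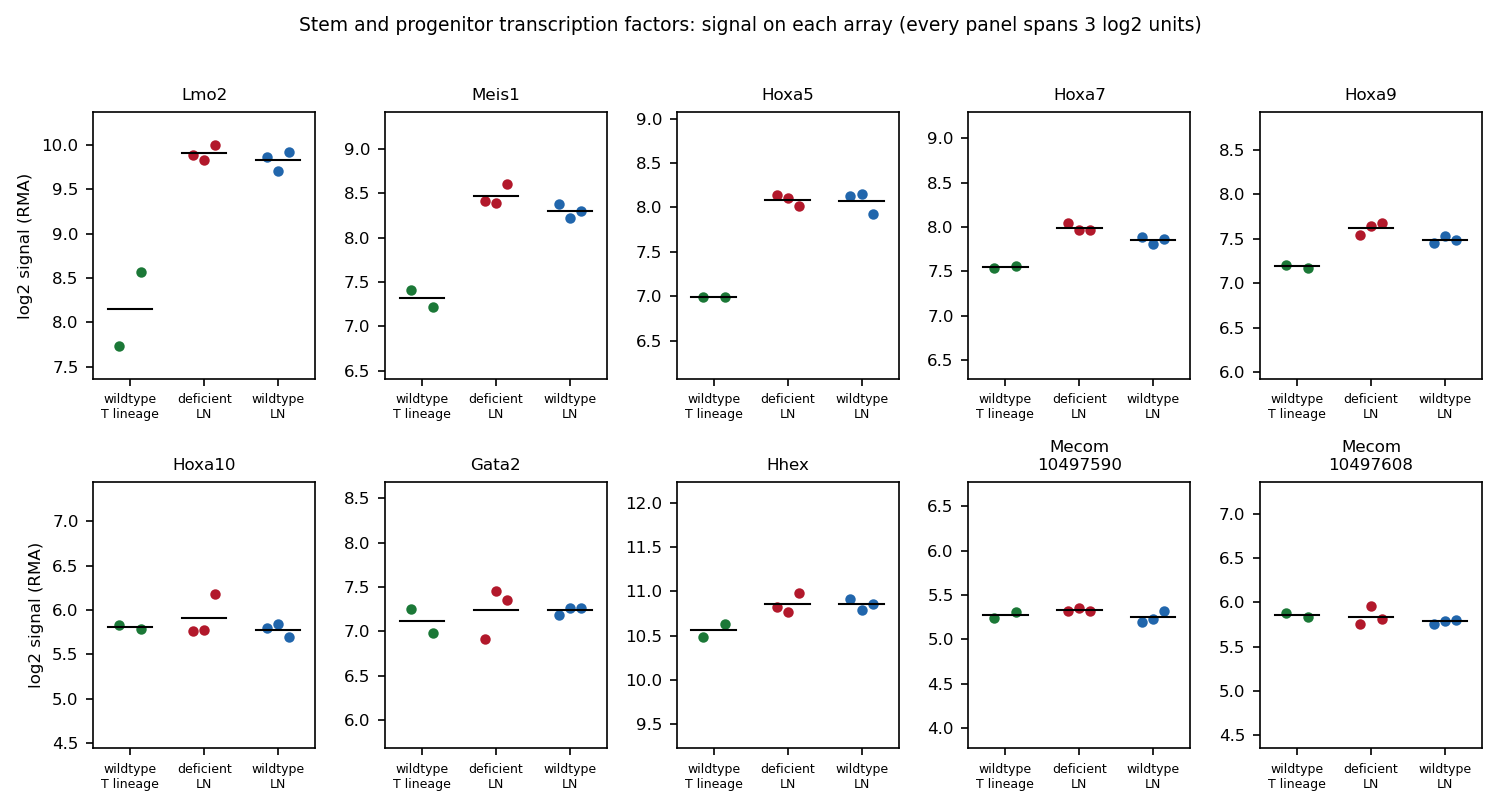
Log2 signal (vertical axis, each panel spanning 3 log2 units) of each of the 10 probesets on each array, with points for arrays and bars for group means. In the panels of Lmo2, Meis1, Hoxa5, Hoxa7, Hoxa9 and Hhex both T lineage points lie below all LN points.

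Lmo2, the bridging protein, stood at 7.73 and 8.56 in T lineage cells, 9.89, 9.83 and 10.00 in deficient LN cells and 9.87, 9.71 and 9.92 in wildtype LN cells (log2 signal). The T lineage arrays were below every LN array but further apart from each other than any LN arrays, and the LN arrays of both genotypes overlapped. The difference of T lineage from wildtype LN cells was -1.68 (SE 0.19, limma adjusted p = 0.000113), and 0.904% of all probesets had a lower one. From deficient LN cells it was -1.76 (SE 0.19, limma adjusted p = 0.000104). The size of this fall differed between the T lineage arrays. Against wildtype LN cells it was -2.10 with T lineage array 1 alone and -1.27 with array 2 alone, both called. In these fits the spread comes from the LN arrays only, and the lone T lineage array is assumed to vary like them.

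Other genes set the T lineage arrays apart too. All 9 T lineage markers were higher on array 1, with Cd3g at 11.52 and 10.21, Cd3d at 8.94 and 7.26 and Rag1 at 10.22 and 8.86 on arrays 1 and 2. Il2ra, a gene of the sort gate, was at 12.24 and 12.22. Myeloid and dendritic markers went both ways: 5 of 10 granulocyte and monocyte markers and 6 of 10 dendritic markers were lower on array 1. Csf1r, at 6.34 and 6.88 on arrays 1 and 2, and H2-Aa, at 5.60 and 6.40, were lower on array 1, whereas S100a8, at 5.76 and 5.35, and Cd74, at 5.83 and 5.33, were higher. The progenitor and myeloid factor genes Mef2c (8.21 and 9.06) and Spi1 (7.83 and 8.39) were lower on array 1. The genes named here were chosen after their values were seen, and their part in the Lmo2 gap was not tested.

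Meis1, the TALE homeodomain cofactor of Hox proteins, stood at 7.41 and 7.22 in T lineage cells, 8.42, 8.39 and 8.61 in deficient LN cells and 8.38, 8.22 and 8.30 in wildtype LN cells. T lineage arrays were lowest, and each deficient LN array was above each wildtype LN array by a small margin. The difference of T lineage from wildtype LN cells was -0.98 (SE 0.10, limma adjusted p = 4.66e-05) and that from deficient LN cells -1.15 (SE 0.10, adjusted p = 1.80e-05). Of all probesets, 2.45% had a lower difference from wildtype LN cells.

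Hoxa5, a homeodomain factor of the central Hoxa cluster, stood at 7.00 and 6.99 in T lineage cells, 8.14, 8.10 and 8.02 in deficient LN cells and 8.13, 8.15 and 7.93 in wildtype LN cells. The T lineage arrays were nearly equal and lay below every LN array, and the LN genotypes overlapped. T lineage cells differed by -1.08 (SE 0.09, limma adjusted p = 1.19e-05) from wildtype LN cells, with 2.12% of all probesets lower, and by -1.10 (SE 0.09, adjusted p = 1.36e-05) from deficient LN cells. The gap between the T lineage arrays seen for Lmo2 was not present at Hoxa5.

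Hoxa7, a homeodomain factor of the same cluster, stood at 7.54 and 7.56 in T lineage cells, 8.05, 7.97 and 7.97 in deficient LN cells and 7.89, 7.80 and 7.86 in wildtype LN cells. Hoxa9, the Hox gene best known in stem cells and leukaemia, stood at 7.20 and 7.17 in T lineage cells, 7.55, 7.64 and 7.68 in deficient LN cells and 7.45, 7.53 and 7.49 in wildtype LN cells. For both, the 3 groups did not overlap and were ordered with T lineage cells lowest and deficient LN cells highest. The difference of T lineage from wildtype LN cells was -0.30 for each (SE 0.07; limma adjusted p = 0.0144 for Hoxa7 and 0.0179 for Hoxa9). From deficient LN cells it was -0.44 (SE 0.07, adjusted p = 0.00193) for Hoxa7 and -0.43 (SE 0.07, adjusted p = 0.00286) for Hoxa9. Against wildtype LN cells the Hoxa7 difference did not pass when T lineage array 1 (adjusted p = 0.0853) or array 2 (0.0627) was left out. That of Hoxa9 did not pass without T lineage array 1 (0.0718) or array 2 (0.0995), nor without wildtype LN array 2 (0.0593) or array 3 (0.0523), nor with a replicate block (0.0522).

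Hoxa10, the most posterior of the 4 Hoxa genes, stood at 5.83 and 5.79 in T lineage cells, 5.76, 5.78 and 6.18 in deficient LN cells and 5.79, 5.84 and 5.70 in wildtype LN cells. All groups overlapped, and deficient LN array 3 stood above the other 7 arrays. T lineage cells differed by 0.03 (SE 0.12, limma adjusted p = 0.899) from wildtype LN cells and by -0.10 (SE 0.12, adjusted p = 0.670) from deficient LN cells. This probeset was among the dimmest 40% of the array.

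Hhex, the homeodomain repressor, stood at 10.48 and 10.63 in T lineage cells, 10.82, 10.77 and 10.98 in deficient LN cells and 10.91, 10.79 and 10.86 in wildtype LN cells. Both T lineage arrays lay below all LN arrays, which overlapped between genotypes. The difference was -0.30 (SE 0.09) from either LN group, with an adjusted p of 0.0424 against wildtype and 0.0502 against deficient LN cells in limma. These calls lie at the threshold: against wildtype LN cells the call was lost in 10 of 16 alternative analyses (adjusted p from 0.0123 to 0.279), and against deficient LN cells it was gained in 4 of 16.

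Gata2, the GATA factor of stem and mast cell precursors, stood at 7.25 and 6.98 in T lineage cells, 6.91, 7.45 and 7.35 in deficient LN cells and 7.18, 7.26 and 7.27 in wildtype LN cells. The groups overlapped, and the deficient LN arrays had the widest spread. T lineage cells differed by -0.12 (SE 0.15) from each LN group, at a limma adjusted p of 0.652 against wildtype and 0.663 against deficient LN cells. Of 9 mast cell and basophil markers, 1 was called higher in T lineage than wildtype LN cells (Cpa3, a mast cell protease, by 2.39), 1 lower (Prss34, a basophil protease, at -0.65) and 7 were not called.

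Mecom, the stem cell zinc finger factor, stood on probeset 10497590 between 5.24 and 5.31 in T lineage cells, 5.32 and 5.35 in deficient LN cells and 5.19 and 5.32 in wildtype LN cells. On probeset 10497608 it stood between 5.83 and 5.88 in T lineage cells, 5.75 and 5.96 in deficient LN cells and 5.75 and 5.81 in wildtype LN cells. T lineage cells differed from wildtype LN cells by 0.03 (limma adjusted p = 0.843) and 0.07 (0.631) on these probesets. Set against deficient LN cells they differed by -0.06 (adjusted p = 0.701) and 0.02 (0.931). Neither probeset was called, and both were among the dimmest 40%.

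Against deficient LN cells, T lineage cells had lower levels of 5 of the 10 probesets (Lmo2, Meis1, Hoxa5, Hoxa7 and Hoxa9) and no higher one. Over all probesets 8.16% were called lower and 5.98% higher in this comparison. By arrays alone, 7 of the 10 lay lower on both T lineage arrays than on every deficient LN array, against 17.1% of all probesets. The seventh, beside the 6 probesets called lower against wildtype LN cells, was Mecom 10497590. The median of the 10 was -0.36 and that of all probesets 0.04. Both comparisons use the same T lineage arrays, so they are not independent of each other, and the genotype comparison shares its LN arrays with them. T lineage and deficient LN cells differ in both gate and genotype, which cannot be told apart here.

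**Figure D2:**
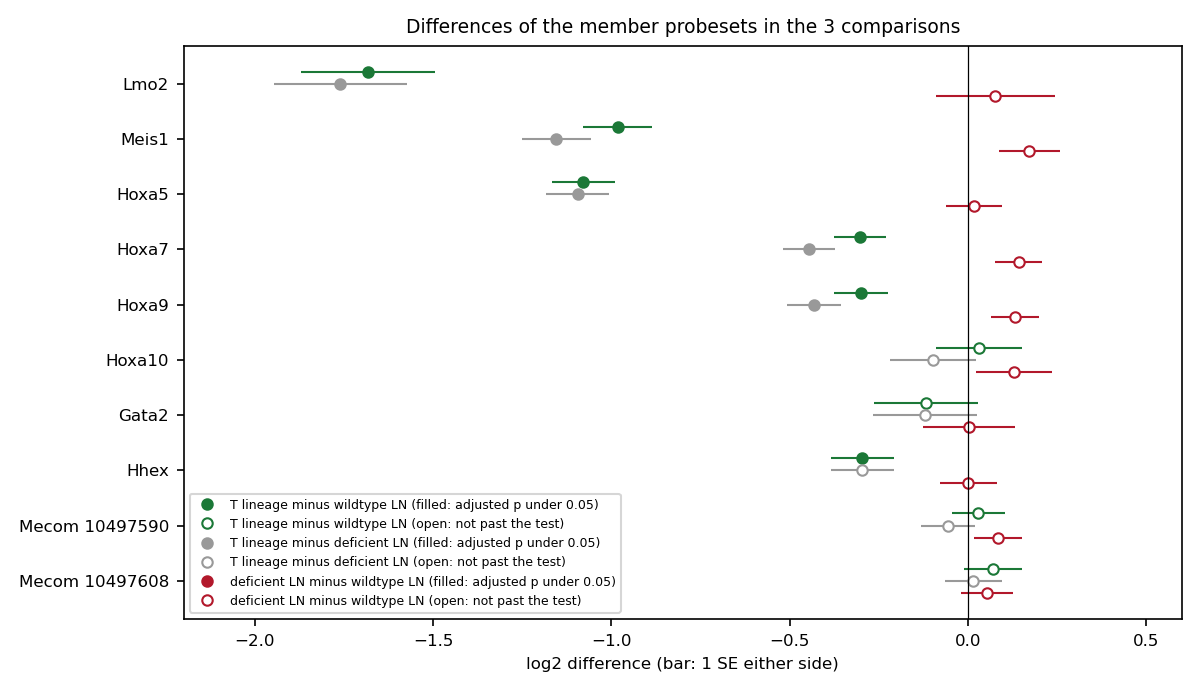
Log2 difference (horizontal axis) of each probeset in the 3 comparisons, with bars of 1 SE either side and filled points for an adjusted p under 0.05. The Lmo2, Meis1 and Hoxa5 points of both T lineage comparisons lie between -1.76 and -0.98, and all points of the genotype comparison lie between 0.0004 and 0.17 and are open.

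Between deficient and wildtype LN cells none of the 10 probesets was called in either direction in limma, and none had an unadjusted p under 0.05. Over all probesets 0.00459% were called lower and 0% higher, that is 1 probeset (Il2ra) and 0 probesets, while 1071 had an unadjusted p under 0.05. The largest difference was 0.17 for Meis1 (SE 0.09), followed by 0.14 for Hoxa7 (SE 0.06) and 0.13 for Hoxa9 (SE 0.07), each at a limma adjusted p of 0.999. For these 3 genes each deficient LN array lay above each wildtype LN array, as it did for 3.93% of all probesets. All 10 differences were above 0, against 46.5% of all probesets, with a median of 0.08 against -0.01. Several of them were close to 0, and the signs of Hoxa5, Hoxa10, Gata2, Hhex and Mecom 10497608 turned when single arrays were left out, that of Hoxa5 also with array weights.

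Lmo2 differed between the genotypes by 0.08 (SE 0.17) and Hoxa5 by 0.02 (SE 0.08), where both fell by more than 1 in T lineage cells. Hoxa10 differed by 0.13 (SE 0.11), Gata2 by 0.003 (SE 0.13) and Hhex by 0.0004 (SE 0.08). The Mecom probesets differed by 0.08 and 0.05. A p above the threshold does not show equal levels, and the SEs give the precision of these values. The Lmo2 SE includes the gap between the T lineage arrays, and was 0.082 when only the LN groups were fitted.

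In the cluster on chromosome 6, genes called lower in T lineage cells stood beside genes that were not called. Since each probe has its own response, the sizes of the falls do not rank the genes. The wildtype LN means of the uncalled genes ran from 5.48 for Hottip to 8.25 for Hoxa4. By arrays alone, both T lineage arrays lay below all 3 wildtype LN arrays for 10 of the 16 genes measured, the unbroken stretch that starts at Skap2 and ends with Hoxa9, against 19.8% of all probesets. Of these 10, 5 were called. In RefSeq order, Hoxa5 (-1.08) stood between Hoxa4 (-0.09, limma adjusted p = 0.504) and Hoxa6 (-0.11, 0.380), both lower on the arrays but not called. Hoxa7 and Hoxa9 followed, and beyond them Mir196b (-0.05, 0.853), Hoxa10 (0.03), Hoxa11 (0.11, 0.639) and Hoxa13 (0.04, 0.892) were not called. Nor were Hottip (-0.02, 0.940) and Evx1 (0.17, 0.337), and both T lineage arrays lay above all 3 wildtype LN arrays for Evx1. On the other side, Hoxa3 (-0.26, 0.0542), Hoxaas2 (-0.18, 0.175) and Hoxa2 (-0.28, 0.117) were likewise lower without a call, while the noncoding gene 5730596B20Rik between Hoxa3 and Hoxa4 was lower (-0.52, 0.0199). Skap2, an adaptor protein gene next to the cluster, fell by 1.47 (adjusted p = 4.24e-06), to 9.57 and 9.84 in T lineage cells, against 11.23, 10.95 and 11.08 in deficient LN cells and 11.18, 11.15 and 11.18 in wildtype LN cells. None of these genes was called between the LN genotypes.

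The RefSeq span of Hoxa5 overlaps those of Hoxa3 and Hoxaas3 and that of Hoxa10 overlaps Gm52902, whereas Hoxa7 and Hoxa9 overlap no other gene. Probe positions were not used here, so whether a probeset reads its named gene alone was not tested.

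**Figure D3:**
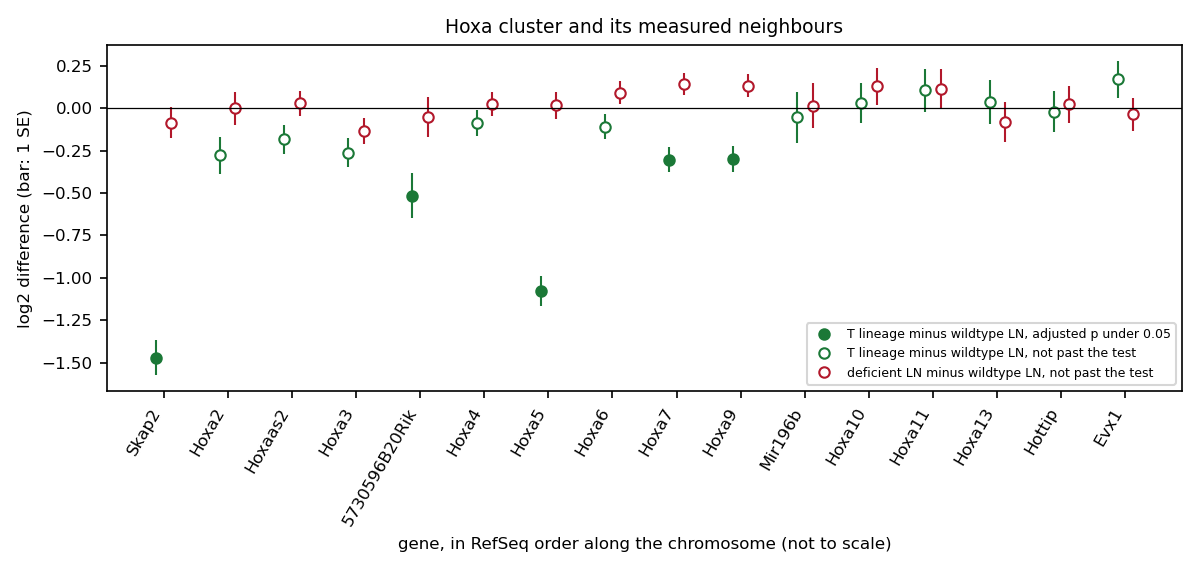
Log2 difference (vertical axis, bars of 1 SE) of the measured genes of the Hoxa cluster and its neighbours in RefSeq order, for T lineage minus wildtype LN and deficient minus wildtype LN cells. Filled points mark an adjusted p under 0.05: Skap2, 5730596B20Rik, Hoxa5, Hoxa7 and Hoxa9, all in the T lineage comparison.

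Among 20 other Hox genes and TALE cofactors measured, 2 were called higher, 0 lower and 18 not called in T lineage against wildtype LN cells, with a median of 0.05. The 2 were Hoxb7 (0.38, limma adjusted p = 0.00704), at 7.10 ± 0.02 (SD, n = 2) in T lineage and 6.73 ± 0.08 (SD, n = 3) in wildtype LN cells, and Hoxb2 (0.31, adjusted p = 0.0150). The differences of the Pbx and Pknox cofactors measured lay between -0.12 for Pbx3 and 0.19 for Pbx2. Relative to deficient LN cells, 1 of the 20 was called higher and 0 lower.

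The partners that Lmo2 joins and genes listed with them moved in both directions. Beside the partners, the list holds the Lmo2 relatives Lmo1 and Lmo4, and Zfpm1, Cbfa2t3 and Gfi1b. Of the 17 genes of this list, 8 were called higher, 3 lower and 6 not called in T lineage against wildtype LN cells, with a median of 0.24. Lmo1 was among those called lower (-0.73, limma adjusted p = 0.00218), and Gfi1b and Zfpm1 among those called higher. Gata3, the GATA factor of T cells, was higher by 1.68 (limma adjusted p = 2.26e-05), at 8.84 ± 0.19 (SD, n = 2) in T lineage and 7.16 ± 0.24 (SD, n = 3) in wildtype LN cells. Tcf4, the E protein of plasmacytoid dendritic cells, was lower by a difference of -1.83 (adjusted p = 4.85e-07), at 9.20 ± 0.16 (SD, n = 2) in T lineage and 11.03 ± 0.04 (SD, n = 3) in wildtype LN cells. The Ldb1-binding cofactors went apart, with Ssbp3 at 0.80 (adjusted p = 0.000398) and Ssbp2 at -1.06 (8.86e-05). Ldb1 itself was higher by 0.52 (adjusted p = 0.00696), and Tal1 (0.11, 0.492) and Gata1 (0.18, 0.165) were not called. Compared with deficient LN cells, 7 were higher, 3 lower and 7 not called.

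Of 30 other stem and progenitor regulators, 9 were called higher, 6 lower and 15 not called in T lineage against wildtype LN cells, with a median of 0.13. Id2, an inhibitor of E proteins, differed by -2.37 (limma adjusted p = 9.44e-07) and Mef2c, a factor of lymphoid-primed and myeloid cells, by -2.19 (1.46e-05). Mycn, a Myc family factor, and Zbtb16, the PLZF factor of innate-like lymphocytes, each differed by 1.09 (adjusted p = 0.000720 and 0.000317). The mean of Id2 was 8.08 ± 0.20 (SD, n = 2) in T lineage, 10.44 ± 0.15 (SD, n = 3) in deficient LN and 10.46 ± 0.21 (SD, n = 3) in wildtype LN cells. Relative to deficient LN cells, 8 of the 30 were higher, 7 lower and 15 not called.

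Among regulators of Hox genes, most of them chromatin proteins, 4 of 19 were called higher, 1 lower and 14 not called in T lineage against wildtype LN cells. Their median was 0.09. The list also holds the homeodomain factors Cdx1, Cdx2 and Cdx4 and the noncoding Hoxaas2 of the cluster, none of them called. Kmt2a (MLL), the methyltransferase that keeps Hoxa genes active, was higher by 0.33 (limma adjusted p = 0.0412). It stood at 10.31 ± 0.11 (SD, n = 2) in T lineage and 9.98 ± 0.14 (SD, n = 3) in wildtype LN cells. Its part in the levels of the Hoxa genes was not tested. Mllt3, a partner of Dot1l, was higher by 0.97 (adjusted p = 0.000505), and Wdr5, a subunit of the Kmt2a complex, by 0.47 (0.0137). The elongation factor gene Aff4 was lower, at -0.29 (0.0164). In the comparison with deficient LN cells 4 were called higher and 0 lower. Kmt2a was not among these 4 (0.32, limma adjusted p = 0.0565), which were Mllt3, Wdr5, Men1 and Mllt1.

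Of 13 genes listed around T commitment, 10 were called higher, 2 lower and 1 not called in T lineage against wildtype LN cells, with a median of 0.57. Ets1 (1.29, limma adjusted p = 0.000149) and Tox (1.07, 0.00116), both factors of T cell development, were higher beside Gata3. The 2 called lower were Id3, an E protein inhibitor, at -2.19 (2.66e-06), and Spib, an ETS factor of plasmacytoid dendritic cells, at -1.06 (5.85e-05). Against deficient LN cells 8 were higher, 2 lower and 3 not called. In none of the 5 lists was a gene called between deficient and wildtype LN cells. The largest differences there were those of Hes1, a Notch-induced repressor, at 0.61 (limma adjusted p = 0.198) and Spib at -0.39 (0.650). Gata3, Tcf12 and Gfi1 stand in more than 1 list.

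**Figure D4:**
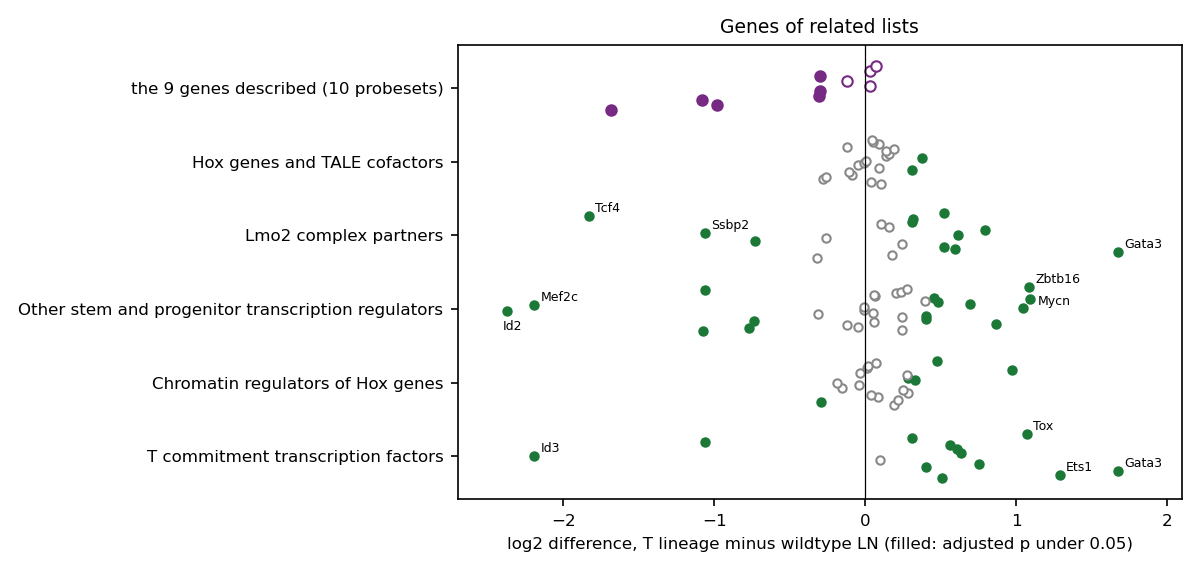
Log2 difference of T lineage minus wildtype LN cells (horizontal axis) for each measured gene of 5 related lists and for the 10 probesets described, 1 point per gene or probeset, filled for an adjusted p under 0.05. The filled points of the top row lie between -1.68 and -0.30, while those of the 5 lists lie on both sides of 0 except for Hox genes and TALE cofactors, where the 2 filled points are positive.

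Markers of other cell types moved beside these falls. For a marker with several probesets, the sums use the probeset of smallest p between T lineage and wildtype LN cells. They describe that contrast and are no separate test of it. All 10 dendritic cell markers were called lower in T lineage than wildtype LN cells, among them Flt3, the receptor of the Flt3L in the cultures. Their summed signal (log2 of the sum) was 10.39 to 10.52 in T lineage cells. It was 13.31 to 13.54 in deficient LN and 13.51 to 13.76 in wildtype LN cells. That of 10 granulocyte and monocyte markers was 11.64 to 12.27 in T lineage, 12.78 to 13.06 in deficient LN and 12.81 to 13.42 in wildtype LN cells, with 6 of 10 called lower. The sum of 9 T lineage markers was 13.41 to 13.97 in T lineage cells. It was 10.02 to 10.07 in deficient LN and 10.01 to 10.21 in wildtype LN cells. Of these markers, 8 of 9 were called higher in T lineage than wildtype LN cells. Thy1 and Il2ra, genes of the sort gate, are in this list, so their share of the sum and of these calls follows from the sort. The part of these marker lists in the falls of Lmo2, Meis1 and the Hoxa genes was not tested. None of 14 stromal markers was called between T lineage and wildtype LN cells or between the LN genotypes, and 2 were called lower in T lineage than deficient LN cells. The stromal sums were 10.51 to 10.53 in T lineage, 10.58 to 10.70 in deficient LN and 10.44 to 10.51 in wildtype LN cells. The deficient LN sums thus lay above those of both other groups. Sparc (0.54, limma adjusted p = 0.0997), Cxcl12 (0.42, 0.959) and Pdgfrb (0.39, 0.688) were higher on every deficient than every wildtype LN array. Postn was lower (-0.12), and the other stromal markers overlapped. Their part in the genotype differences of Meis1, Hoxa7 and Hoxa9 was not tested.

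The sums of 10 NK and innate lymphoid markers were 12.66 to 12.80 in T lineage, 11.99 to 12.05 in deficient LN and 12.06 to 12.30 in wildtype LN cells. Those of 9 mast cell and basophil markers were 11.63 to 11.82 in T lineage, 10.10 to 10.74 in deficient LN and 10.24 to 10.67 in wildtype LN cells. The 7 erythroid and megakaryocyte markers summed to 9.72 to 9.73 in T lineage, 9.27 to 9.56 in deficient LN and 9.40 to 9.43 in wildtype LN cells. For 7 B lineage markers the sums were 10.01 to 10.27 in T lineage, 10.20 to 10.68 in deficient LN and 10.14 to 10.82 in wildtype LN cells. The B lineage ranges overlapped across all groups, with 0 called higher and 2 lower of 7 in T lineage than wildtype LN cells. For the other 3 lists the T lineage sums were highest, but their members went both ways. Of the NK and innate lymphoid markers 4 of 10 were called higher and 2 lower, with Gzma at 3.24 and Klrd1 at -5.71. Of the erythroid and megakaryocyte markers 1 of 7 was called higher (Itga2b, 1.32) and 1 lower (Pf4, -0.70), and the mast cell and basophil counts are given beside Gata2. Array values give no measured zero, so no marker can be read as absent.

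The genes whose profiles over the 8 arrays were nearest to each of the 9 were found by Euclidean distance between profiles centred on their own mean, as a description. Nearest to Lmo2 (profile length 2.20) were Samhd1 at 0.278, Cep85l at 0.281 and Ccl9 at 0.327. Nearest to Meis1 (length 1.35) were Epb41l3 at 0.302, Acss1 at 0.314 and Glrx at 0.328. Acss1 was also near Hoxa5 (length 1.35) at 0.290, beside Fyco1 at 0.287 and Gpcpd1 at 0.306. Each of these distances was small against the length of the profile, which is its distance from a flat line. Nearest to Hoxa7 (length 0.499) were P2rx4 at 0.118, Selenoh at 0.122 and Epsti1 at 0.124. For Hoxa9 (length 0.490) they were Fam217b at 0.108, Pacsin2 at 0.133 and Serpinb1a at 0.146, and for Hhex (length 0.417) Leap2 at 0.0906, Rab22a at 0.106 and Apbb1ip at 0.107. Gata2 (length 0.479), whose arrays followed no group, was nearest to Mir196b at 0.140, Tsga8 at 0.141 and Cnrip1 at 0.154. Hoxa10 (length 0.388) was nearest to Mir34a at 0.133, Defb8 at 0.142 and Gpr17 at 0.144. Mecom 10497590 (length 0.154) was nearest to Ms4a19 at 0.0733, Toe1 at 0.0756 and Rarres2 at 0.0803, and Mecom 10497608 (length 0.178) to Zfp804a at 0.0571, Hhla1 at 0.0589 and Kalrn at 0.0669.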

How the data were processed

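Arrays were hybridised with amplified, biotin-labelled cDNA from 10 ng of total RNA, per the labels' protocols. The authors deposited log2 values per probeset, made with RMA (background correction, normalization across arrays and summary of the probes of a set) in Partek 6.5, per the submitters' processing notes. The log2 scale was read from the values, and other options, scan dates and the build of the array are not stated in the sources used here. Of 35399 probesets, 11989 without a gene and 1621 with several were left out. Identifiers of 21698 of the 21789 tested matched RefSeq.

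All 8 arrays were fitted as 3 groups with limma 3.58.1 (lmFit, eBayes) in R 4.3.3, with 5 residual degrees of freedom, two-sided tests and Benjamini-Hochberg adjustment over all tested probesets. A call is an adjusted p under 0.05. No set test was run. A gene of the related and marker lists with several probesets was counted by its probeset of smallest p in that comparison. Such gene counts are therefore not like the shares over all probesets. The fit was also run on simulated data with independent noise and, for each probeset, the same spread in all groups. That run does not cover unequal spreads such as that at Lmo2.

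The 9 genes, the 5 related lists and the 8 marker lists were chosen with earlier results of these data known. Named were all 9 genes, from each related list up to 4 called genes of largest T lineage minus wildtype LN difference, the 2 largest between genotypes, and the 3 nearest profiles of each probeset. Ldb1, Tal1, Gata1, Pbx2, Pbx3, the marker genes named, the neighbours in the Hoxa cluster and the genes that set the T lineage arrays apart were added after their values were seen. The 16 alternatives left out each array in turn or changed the scaling, the filter, the variance model or the blocking.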

Additional observations from a re-analysis of the deposited data

How the results depend on the processing

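Lmo2, Meis1 and Hoxa5 stayed called lower in T lineage than wildtype LN cells in all 16 alternatives, with differences from -2.10 to -1.27, -1.08 to -0.88 and -1.15 to -1.04. The number of the 10 probesets called lower in this comparison was 6, and ranged from 3 to 6 when single arrays were left out. It was 3 without T lineage array 1 and 3 without array 2, where Hoxa7, Hoxa9 and Hhex were no longer called. Hoxa9 lost its call in 5 of 16 alternatives, with differences from -0.32 to -0.26, and Hhex in 10 of 16, with differences from -0.37 to -0.22. Against deficient LN cells Hoxa7 and Hoxa9 stayed called in all 16 alternatives, and Hhex gained a call without deficient LN array 2 (limma adjusted p = 0.0424), without the dimmest 40% of probesets (0.0323), with trend and robust variance (0.0151) and with array weights (0.0324). The cause of these changes was not tested. Between the LN genotypes none of the 10 was called in any alternative, while the calls over all probesets, 1 as reported, ranged from 0 to 12. No called difference changed sign. Hoxa10 and the Mecom probesets fall under the filter on dim probesets, so 15 alternatives gave them a value.

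With a replicate block, 4 of the 10 were called lower in T lineage than wildtype LN cells (Hoxa9, at 0.0522, and Hhex, at 0.113, were not), 5 against deficient LN cells and 0 between genotypes. Correlations of same-numbered deviations from the group means were -0.13, 0.0169 and 0.0431 between the LN genotypes. They were 0.158 and 0.12 between wildtype LN and T lineage cells, and -0.138 and -0.247 between deficient LN and T lineage cells. Deviations within so small a group depend on each other, so these values cannot decide whether same-numbered arrays are paired.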
